A study of Gallus gallus with 4 samples.

Results

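Syndecans and glypicans are the membrane proteoglycans that carry heparan sulfate, a long sulfated sugar chain that binds growth factors at the cell surface. The 4 syndecans span the membrane and end in a short conserved tail that binds cytoplasmic partners, whereas glypicans are tethered by a lipid (GPI) anchor and can be released by enzymes. Through their chains both families hold or present FGF, hedgehog, WNT and BMP ligands, which pattern growing cartilage, and syndecan-3 is a known surface protein of condensing and proliferating chondrocytes in the chick limb.

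Of 9 genes sought by name (SDC1, SDC2, SDC3, SDC4, GPC1, GPC3, GPC4, GPC5 and GPC6), 8 had at least 1 probe set annotated with that symbol alone, 13 probe sets of 38535 on the array. The exception was SDC4, for which no probe set carries the symbol alone, and it was not analysed here. A probe set is a group of short probes whose summarized intensity stands for a transcript. SDC1, SDC2 and GPC4 had 2 probe sets each, GPC1 had 3, and SDC3, GPC3, GPC5 and GPC6 had 1. The NCBI gene numbers in the annotation were 421960 for SDC1, 374102 for SDC2 and 396343 for SDC3, and 424770 for GPC1, 770863 for GPC3, 422234 for GPC4, 418795 for GPC5 and 418794 for GPC6. The GPC6 probe set and the dimmest of GPC1 have the ending _s_at, the array maker's mark for probes shared by several transcripts. In the current chicken RefSeq gene table (GRCg7b), GPC3 and GPC4 are direct neighbours, and GPC5 and GPC6 lie with 1 protein-coding gene start between theirs.

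The RNA was taken from the tibia of white leghorn chicken embryos. Embryos were at day 12 (E12), which is stage 38 of the Hamburger-Hamilton series, or at day 14 (E14), stage 40. At each age 1 array was hybridized with purely transient cartilage of the epiphysis (TC), which is later replaced by bone, and 1 with articular cartilage dissected along with some transient cartilage (TC+AC). Tissue from many embryos was pooled for each sample, 5 µg of total RNA was used, and TC served as the reference. No group had a replicate array, and TC+AC is a mixture, so an articular level cannot be read from it alone.

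Of 14 cartilage markers, 13 lay above background on all 4 arrays, where background is the intensity that 95% of the 541 virus probe sets on an array do not exceed. The summed normalized intensity of these 14 was 21998 in TC and 17420 in TC+AC at E12, and 72398 and 32266 at E14. At E14, 10 of the 14 were at least 2-fold lower in TC+AC and 0 higher, against 15.6% lower among all 7805 genes tested. At E12 the count was 3 of 14, against 3.28%. The dissections also differed in markers of particular cartilage zones. Markers of hypertrophic cartilage, the zone next to bone formation, summed to 8552 in TC and 1041 in TC+AC at E12, and to 9063 and 1104 at E14, and 5 of 8 tested were lower in TC+AC by limma. Joint and articular markers summed to 1406 and 2518 at E12, and to 1097 and 2334 at E14, and 3 of 10 tested were higher. Fibrous tissue and tendon markers summed to between 36860 and 41489 on the 4 arrays. Gene by gene, 4 of these 13 were at least 2-fold higher in TC+AC at E12 and 4 at E14, with 0 lower. Among all genes tested 4.46% were that much higher at E12 and 20.3% at E14. By limma 1 of the 13 was higher, and 1 of the 14 cartilage markers was lower. Among all genes tested, limma called 1.47% for tissue in either direction. Red cell markers summed to 4920 in TC at E14 and to between 10771 and 11338 on the other arrays, and muscle markers to 163 and between 665 and 924. Endothelial markers (6 of 10 above background on all 4 arrays) summed to between 494 and 1004, leukocyte markers (6 of 9) to between 618 and 1276, nerve markers (3 of 6) to between 767 and 1756 and epithelial markers (5 of 8) to between 252 and 570. The hypertrophic zone gene IHH, the skeletal muscle genes MYH1E, MYOG and PAX7, the endothelial gene EMCN, the nerve gene NEFM and the epithelial gene EPCAM did not exceed background on any array. As deposited, the median intensity of TC+AC at E14 was 13.1, against 20.6 to 23.1 on the other arrays. That array also had the highest ratio of 3' to 5' signal for beta-actin, 7.48 against 1.99 to 4.01, a measure of RNA or labelling quality. In such bulk samples, fewer cells of a type and less RNA per cell cannot be told apart.

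None of the 6 genes bright enough to be tested passed for tissue or for stage. On the brightest probe sets, the tissue difference changed between the ages by at least 1 on the log2 scale for 5 of them. This was so for 33.3% of all genes tested, and the other probe sets of GPC1 and GPC4 did not reach it. On all 3 of its probe sets, GPC1 was lower in TC+AC at E12, by 2.35-fold to 2.59-fold. SDC3 was 2.13-fold lower at E12. At E14, SDC2 was lower in TC+AC on both probe sets, by 2.35-fold and 3.89-fold, and the brightest probe sets of SDC1, GPC4 and GPC6 were also at least 2-fold lower. SDC1 and GPC6 had the opposite difference at E12. These within-age values have no replicate check.

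**Figure D1:**
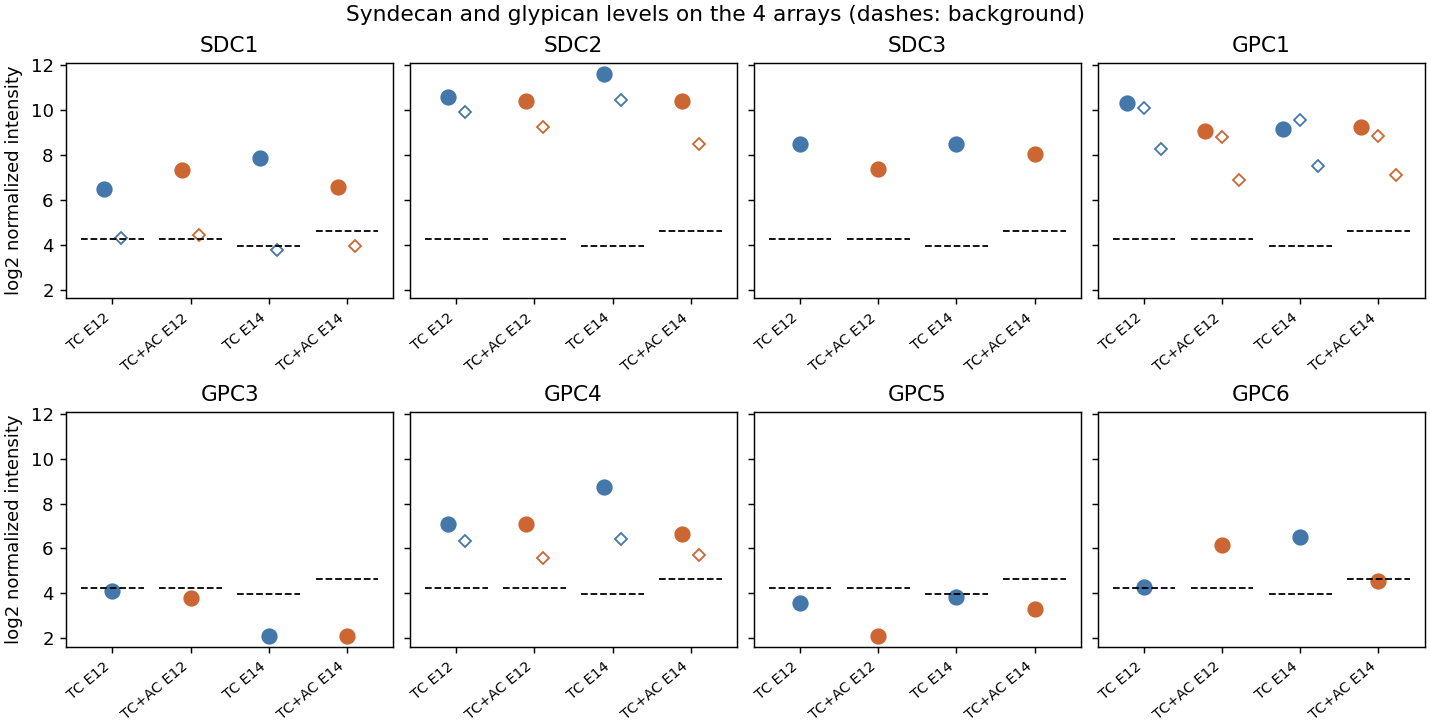
Log2 normalized intensity (vertical axis) of every syndecan and glypican probe set on the 4 arrays (horizontal axis), blue for TC and orange for TC+AC. Filled circles are the brightest probe set of a gene, open diamonds its others, and dashes the background of each array. SDC2, SDC3, GPC1 and GPC4 lie above background throughout, GPC3 and GPC5 at or below it, and the second probe set of SDC1 sits near it.

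Among the syndecans, SDC1, the family member best known from epithelia and plasma cells, had a normalized intensity of 89.2 in TC and 159 in TC+AC at E12, and of 237 in TC and 94.2 in TC+AC at E14. The highest level was thus in TC at E14 and the next in TC+AC at E12, while the remaining arrays were close to each other, with log2 levels of 6.48 and 6.56. TC+AC was 1.78-fold higher than TC at E12 and 2.51-fold lower at E14. Within TC the E14 level was 2.66-fold that at E12, whereas in TC+AC it was 1.69-fold lower. The second probe set of SDC1 ranged from 13.5 to 21.8, was at or below background on both E14 arrays, and had a log2 tissue difference of 0.14 at E12, so it neither repeats nor opposes the E14 difference.

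SDC2, a syndecan of mesenchymal cells, was bright on every array. Its brightest probe set read 1550 in TC and 1370 in TC+AC at E12, and 3159 and 1344 at E14. A single array stands out, TC at E14, and the other 3 had log2 levels from 10.39 to 10.60. The second probe set read 956 and 618 at E12 and 1398 and 359 at E14. It had the same highest array, but on it TC+AC was lower already at E12, by 1.55-fold against 1.13-fold on the brightest. The E14 difference was 2.35-fold on the brightest and 3.89-fold on the second.

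SDC3, the syndecan of proliferating chondrocytes in the chick, read 359 in TC and 168 in TC+AC at E12, and 366 and 267 at E14. Both TC arrays were near equal, with log2 levels of 8.49 and 8.51, and both TC+AC arrays were below them. The log2 tissue difference was -1.09 at E12 and -0.45 at E14. Among the 6 tested genes, SDC3 and SDC2 were lower in TC+AC at both ages on their brightest probe sets, except that SDC2 at E12 had a log2 difference of 0.01 in the values as deposited. This was so for 29.4% of all genes tested.

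Among the glypicans, GPC1, which acts as a co-receptor for FGF2, read 1266 in TC and 540 in TC+AC at E12, and 567 and 608 at E14 on its brightest probe set. TC at E12 was the single high array, and the other 3 spanned log2 levels of 9.08 to 9.25. The second probe set read 1091, 446, 761 and 466 in the same order of arrays, and the third 310, 120, 184 and 139. All 3 thus had their highest level in TC at E12 and a lower one in TC+AC at that age, with log2 differences of -1.23, -1.29 and -1.37. At E14 they disagreed in sign, with 0.10, -0.71 and -0.40. Within TC the log2 change from E12 to E14 was -1.16, -0.52 and -0.76, and within TC+AC it was between 0.06 and 0.22.

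GPC4, whose zebrafish counterpart is needed for cartilage shape, read 135 in TC and 136 in TC+AC at E12, and 432 and 101 at E14 on its brightest probe set. The log2 tissue difference was 0.01 at E12 and -2.09 at E14, and the E14 level in TC was 3.20-fold that at E12. The other probe set gave a different picture. It read 79.4 and 47.8 at E12 and 84.8 and 51.6 at E14, lower in TC+AC by 1.66-fold and 1.64-fold, and its log2 change in TC was 0.09. Both probe sets were above background on all 4 arrays, and they share the direction at E14 but not the change with age.

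GPC6, a glypican whose loss in humans shortens the limb bones, read 19.4 in TC and 70.3 in TC+AC at E12, and 90.6 and 23.5 at E14. TC at E12 was barely above its background of 18.9, and TC+AC at E14 was below its background of 24.6. At E12 TC+AC was higher by 3.62-fold. At E14 it was lower by at least 3.69-fold, taking its background as an upper limit. GPC6 has a single probe set, so no second measurement of it can be set beside these values.

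GPC3, an inhibitor of hedgehog signalling in mice and the gene of a human overgrowth syndrome, was at or below background on all 4 arrays, with intensities of 17.0, 13.8, 2.45 and 1.18. GPC5, a glypican that promotes hedgehog signalling in human tumour cells, was likewise at or below background, with intensities between 2.80 and 14.3. Neither entered the test, because both fell among the 40% of genes with the lowest mean. These values say only that the probe sets did not rise above background.

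**Figure D2:**
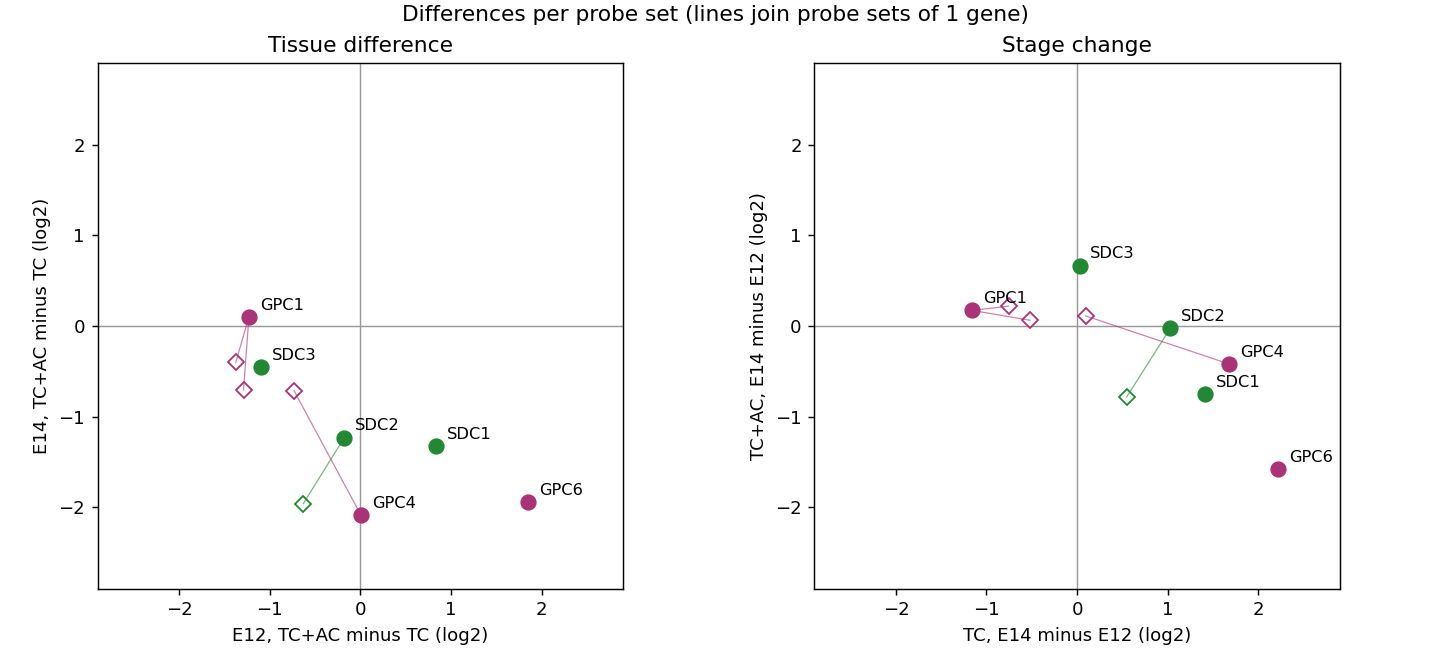
Log2 differences of each probe set above background on at least 3 arrays, syndecans in green and glypicans in purple. Left, the tissue difference at E12 (horizontal) against that at E14 (vertical), and right, the stage change in TC (horizontal) against that in TC+AC (vertical). Filled circles are the brightest probe set of a gene, and lines join it to its others (open diamonds). The 3 GPC1 probe sets lie together on the left of the first panel, while those of GPC4 lie far apart.

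The comparison of TC+AC with TC asks which genes distinguish cartilage that persists at the joint from cartilage that bone replaces. In a linear model with tissue and stage as additive terms (limma), 0 of the 6 genes passed an adjusted p of 0.05, against 1.47% of all 7805 genes tested, and 0 passed an unadjusted p of 0.05, against 13.4%. The fitted log2 difference, which is the mean of the E12 and E14 differences, was lowest for GPC4, at -1.04 (95% interval -2.13 to 0.05, limma adjusted p = 0.40). It was -0.77 for SDC3 (-1.79 to 0.25, adjusted p = 0.53), -0.71 for SDC2 (-1.74 to 0.33, adjusted p = 0.59) and -0.56 for GPC1 (-1.61 to 0.48, adjusted p = 0.70). SDC1 had -0.25 (-1.35 to 0.85, adjusted p = 0.90) and GPC6 -0.05 (-1.30 to 1.21, adjusted p = 0.99). All 6 values lay below 0, with a median of -0.63 against 0.02 for all genes tested, and all 6 intervals included 0. The share of all tested genes with a fitted value below 0 was not counted. SDC1 and GPC6 are means of opposite differences, and without TC E14 they had 0.46 and 1.07. Each interval also spans more than a 2-fold change in 1 direction, so the data do not show that the tissues had equal levels. The model has 1 residual degree of freedom, the disagreement between the ages, and takes most of its variance from a prior shared across genes. The SD of that prior, 0.504 on the log2 scale, says nothing of the spread between embryos or repeat dissections.

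**Figure D3:**
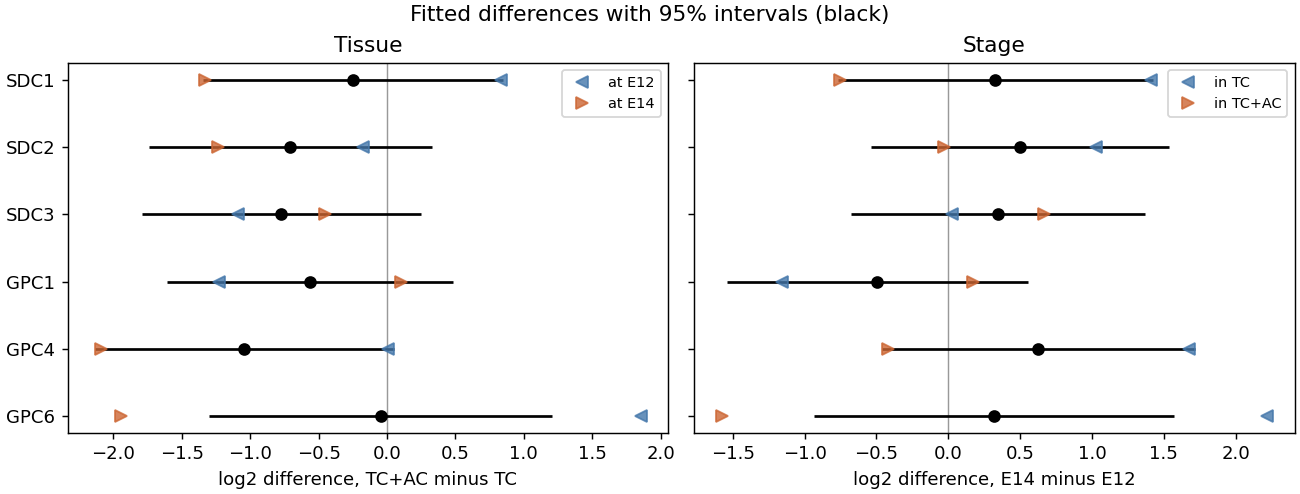
Fitted log2 differences (black circles) with 95% intervals (black lines) for the 6 tested genes, for tissue (left) and stage (right). Triangles are the measured differences behind each mean, at E12 and E14 on the left and in TC and TC+AC on the right. All intervals include 0, and the triangles of GPC6 lie outside its intervals.

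Age by age, 3 of the 6 genes were at least 2-fold apart at E12, GPC6 higher in TC+AC and SDC3 and GPC1 lower. Of all genes tested, 7.74% were that far apart at E12, 4.46% higher and 3.28% lower. At E14 4 of 6 were at least 2-fold lower in TC+AC (SDC1, SDC2, GPC4 and GPC6) and 0 higher, against 35.9% of all genes tested, 15.6% lower and 20.3% higher. The difference was below 0 for 3 of 6 genes at E12, against 50.1%, and for 5 of 6 at E14, against 48.1%. The median log2 difference of the 6 was -0.09 at E12 and -1.28 at E14, where all tested genes had 0.00 and 0.05. Cartilage markers had a median log2 difference of -0.37 at E12 and -1.39 at E14 in the same samples, hypertrophic markers -3.41 and -3.18, and joint and articular markers 1.35 and 1.54. The array of the highest 3' to 5' ratios is TC+AC at E14 and that of the lowest is TC at E14 (beta-actin 7.48 and 1.99). The part of these in the differences of the 6 genes was not tested.

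The tissue difference changed between the ages by at least 1 on the log2 scale for 5 of the 6 genes, against 33.3% of all genes tested. The change was -3.74 or further below 0 for GPC6, whose TC+AC level at E14 lay below background, -2.17 for SDC1, -2.10 for GPC4, -1.05 for SDC2 and 1.33 for GPC1. GPC1 alone of these 5 moved upward. On their brightest probe sets, SDC1, GPC1, GPC4 and GPC6 had differences of opposite sign at the ages, as 39.3% of all genes tested did. Of these, GPC4 at E12 and GPC1 at E14 lay near 0. The other probe sets of GPC1 and GPC4 were lower in TC+AC at both ages. As deposited, the brightest GPC1 probe set was too (-1.04 and -1.12), but the median of all tested genes was then 0.20 at E12 and -1.09 at E14. The change between ages was 0.97 and 0.58 on the other GPC1 probe sets, -1.33 on the second of SDC2 and 0.02 on that of GPC4. Each of these changes is a difference of differences over 4 single arrays and has no test.

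From E12 to E14, the comparison of ages, 0 of the 6 genes passed in the same model, against 0.256% of all genes tested, and 0 had an unadjusted p under 0.05, against 6.91%. The fitted log2 change was 0.63 for GPC4 (95% interval -0.46 to 1.72, limma adjusted p = 0.92), 0.50 for SDC2 (-0.54 to 1.53, adjusted p = 0.94) and -0.49 for GPC1 (-1.54 to 0.55, adjusted p = 0.94). SDC3 had 0.35, SDC1 0.33 and GPC6 0.32, with adjusted p of 0.98, 0.98 and 0.99. Within TC, on the brightest probe sets, 4 of 6 genes were at least 2-fold higher at E14 (GPC6 4.66-fold, GPC4 3.20-fold, SDC1 2.66-fold and SDC2 2.04-fold). GPC1 was 2.23-fold lower. The second probe sets of SDC2 and GPC4 rose only 1.46-fold and 1.07-fold, and the dim second one of SDC1 was lower at E14. The other probe sets of GPC1 were 1.43-fold and 1.69-fold lower. The log2 change of SDC2 was 0.73 as deposited and 0.57 with median centring. Of all genes tested, 22.4% were at least 2-fold apart in TC, 8.3% higher and 14.1% lower. The change in TC was above 0 for 5 of 6 genes, against 43.4%, and in TC+AC for 2 of 6 (SDC3 and GPC1), against 46.7%. In TC+AC, GPC6 was the only one of the 6 to differ by at least 2-fold, lower at E14 by at least 2.86-fold. Of all genes tested, 12.6% differed that much there, 4.71% higher and 7.92% lower. The stage comparison in TC and the tissue comparison at E14 share the TC E14 array, and the 4 genes high on it enter both. Cartilage markers had a median log2 change of 2.15 in TC and 1.04 in TC+AC.

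Because the arrays differed in brightness, the values were also read as deposited, centred on each array's median, and scaled on the hybridization controls. The median tissue difference of all tested genes at E14 was then -1.09, -0.27 and -1.66, against 0.05 after quantile normalization. As deposited, all 6 genes were at least 2-fold lower in TC+AC at E14, as were 53.7% of all genes tested, and on hybridization controls all 6 were, against 73.1%. With median centring 4 of 6 were, against 24.1%. The values relative to the median moved less, but this was largely fixed in advance. The deposited, median-centred and hybridization-control values differ only by a constant factor per array, which subtracting the median nearly removes. Only quantile normalization is a separate comparison. At E14 the range over the 4 scalings was -2.19 to -2.14 for GPC4, -1.41 to -1.38 for SDC1, -2.0 to -1.72 for GPC6, -1.29 to -0.99 for SDC2, -0.61 to -0.50 for SDC3 and -0.03 to 0.05 for GPC1. At E12 it was -1.24 to -1.23 for GPC1, -1.09 to -1.08 for SDC3, 0.84 to 0.88 for SDC1, 1.86 to 1.91 for GPC6, -0.19 to -0.18 for SDC2 and 0.01 to 0.02 for GPC4. Relative to the median, the E14 sign of GPC1 thus differed between quantile normalization and the other scalings. The other 5 genes were lower in TC+AC under both kinds.

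**Figure D4:**
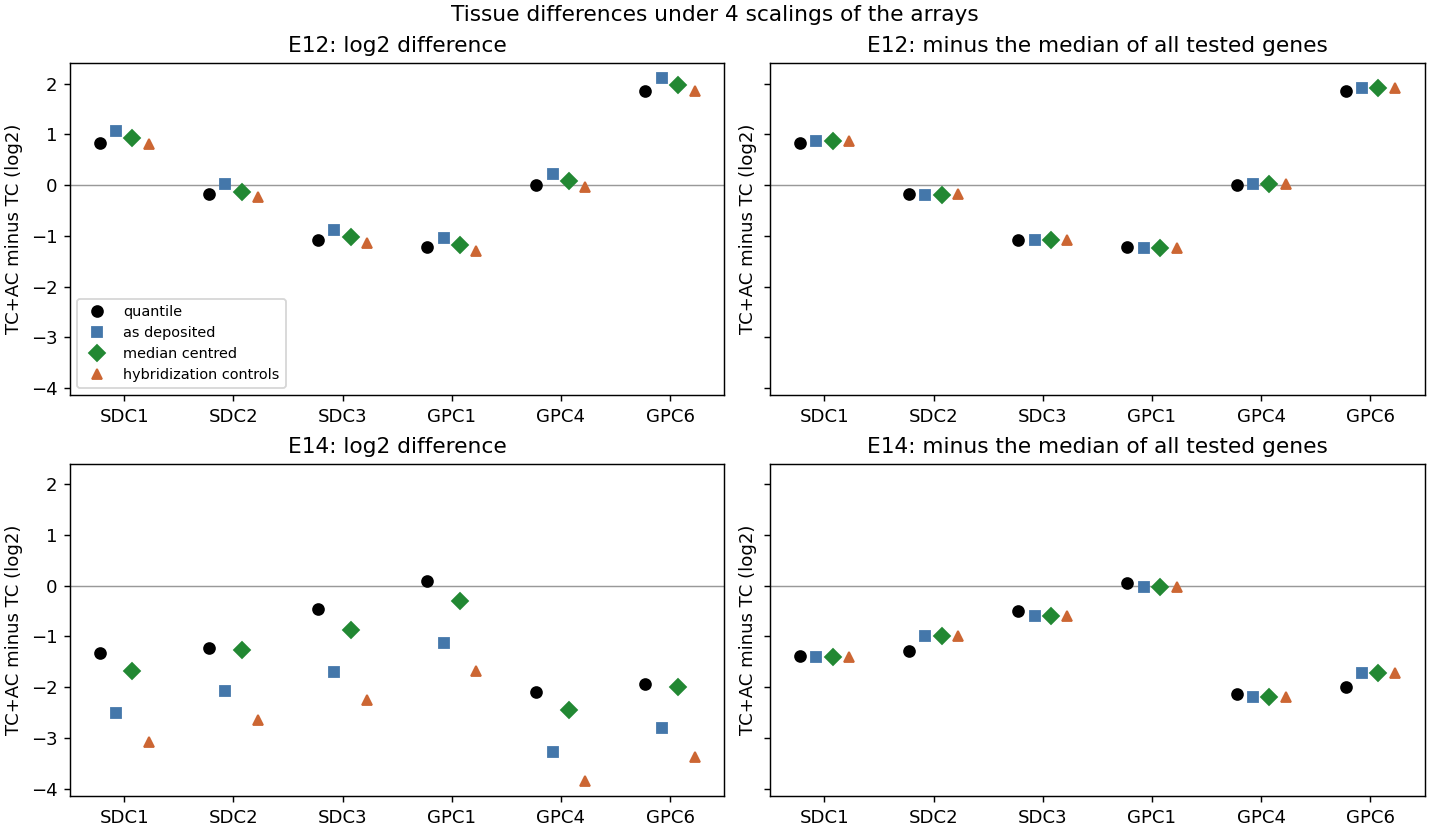
Tissue differences (TC+AC minus TC, log2, vertical axis) of the 6 tested genes under 4 scalings, at E12 (top) and E14 (bottom). The left panels show the difference itself and the right panels the difference minus the median of all tested genes. At E14 the symbols spread widely on the left and come together on the right, with GPC4 between -2.19 and -2.14. Subtracting the median nearly removes any constant factor of an array, so most of this closeness is by design.

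Profiles over the 4 arrays were compared on the brightest probe set of each gene, and the other GPC4 probe set has a different profile. By closeness of profile, the tested genes most like GPC4 were ATP6V1H, a proton pump subunit gene, CLK4, a splicing kinase gene, and TTC13. Their root mean square distances were 0.06, 0.08 and 0.08 on the log2 scale after centring each gene on its own mean. Those most like SDC1 were CTHRC1, which encodes a secreted collagen-triple-helix protein, ANXA11, an annexin gene, and NSMAF, with distances of 0.06, 0.08 and 0.08. CTHRC1 had log2 levels of 10.84 and 11.61 in TC and TC+AC at E12 and of 12.34 and 10.89 at E14. With 4 arrays and 7805 genes, close matches are easily found.

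Companion genes of the heparan sulfate pathway were read in the same fit. Of 5 tested genes for other proteins that carry heparan sulfate, 0 passed for tissue or stage, and the list had a median fitted tissue difference of 0.32. COL18A1, the collagen XVIII gene, had log2 tissue differences of 0.21 at E12 and 2.78 at E14 (limma adjusted p = 0.19). CD44, the hyaluronan receptor gene, had 0.84 and 0.86 (limma adjusted p = 0.47). Its other probe sets had between 0.66 and 1.01 at E12 and between 0.13 and 1.19 at E14. HSPG2, the perlecan gene, had -0.31 and 0.96 (adjusted p = 0.85), and its other probe sets above background on all arrays had 0.85 and 1.39 and -0.09 and 0.34.

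Of 19 tested genes for chain synthesis and sulfation, 0 passed for tissue, and the median fitted tissue difference was 0.00. At E14, 4 of the 19 were at least 2-fold higher in TC+AC and 4 lower, close to the 20.3% and 15.6% of all genes tested. PAPSS2, which makes the sulfate donor, rose with stage (limma adjusted p = 0.031), at least 9.33-fold in TC and at least 1.88-fold in TC+AC, from levels below background at E12. A second PAPSS2 probe set was above background on the E12 arrays alone, so the probe sets disagree. The call was lost as deposited, on hybridization controls, with no dim filter and with every probe set on its own. It was also lost without the tissue term, and on 3 arrays without TC E12, TC E14 or TC+AC E14. In the other settings PAPSS2 was not followed, and with mean probe sets 1 gene in all was called for stage.

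Of 10 tested genes for chain editing, cleavage and shedding, 0 passed. SULF1, a sulfatase that removes 6-O-sulfate from heparan sulfate outside the cell, had a log2 tissue difference of 0.02 at E12 and -1.74 at E14 and a change of 1.95 in TC (adjusted p = 0.49 for tissue and 0.72 for stage, limma). Its other probe sets above background on all arrays had -1.01 and -1.47 at E14 and changes of 2.17 and 1.79 in TC. ADAM10, a membrane protease that sheds ectodomains, had -1.05 and -0.66 (limma adjusted p = 0.46), and its other probe set had -0.81 and -1.55. FURIN, a proprotein convertase gene, had 0.15 and 1.04 (adjusted p = 0.67).

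Of 11 tested genes for cytoplasmic partners of syndecans, 0 passed, with a median fitted tissue difference of 0.25. The kinase gene SRC had 0.51 at E12 and 1.96 at E14 (limma adjusted p = 0.25), CASK, a scaffold that binds the syndecan tail, 0.54 and 1.04 (adjusted p = 0.52), and RDX, the radixin gene, -0.29 and -0.89 (adjusted p = 0.67). The probe sets of CASK disagreed at E14, where another one above background on all arrays had -0.54. Another RDX probe set above background on all arrays had -0.36 and -1.63.

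Of 19 tested ligands and partners that bind heparan sulfate, 0 passed, with a median of 0.29. WNT5A, a WNT ligand of growing cartilage, had the lowest value, with -2.33 at E12 and -1.32 at E14 (limma adjusted p = 0.065), and its other probe sets above background on all arrays had -1.84 and -2.76 at E12 and -0.63 and -0.66 at E14. HBEGF, a heparin-binding EGF receptor ligand, was higher at both ages, with 1.57 and 1.72 (adjusted p = 0.098). BMP4 had 0.82 and 1.72 (limma adjusted p = 0.23), and another probe set above background on all arrays had 0.81 and 0.49. The medians of the 5 lists lay between 0.00 and 0.32. That of the 14 cartilage markers was -0.74, and that of the 6 syndecans and glypicans -0.63. These 6 leave out GPC2, a glypican outside the named set, whose probe sets disagreed. Its brightest was higher in TC+AC at both ages.

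**Figure D5:**
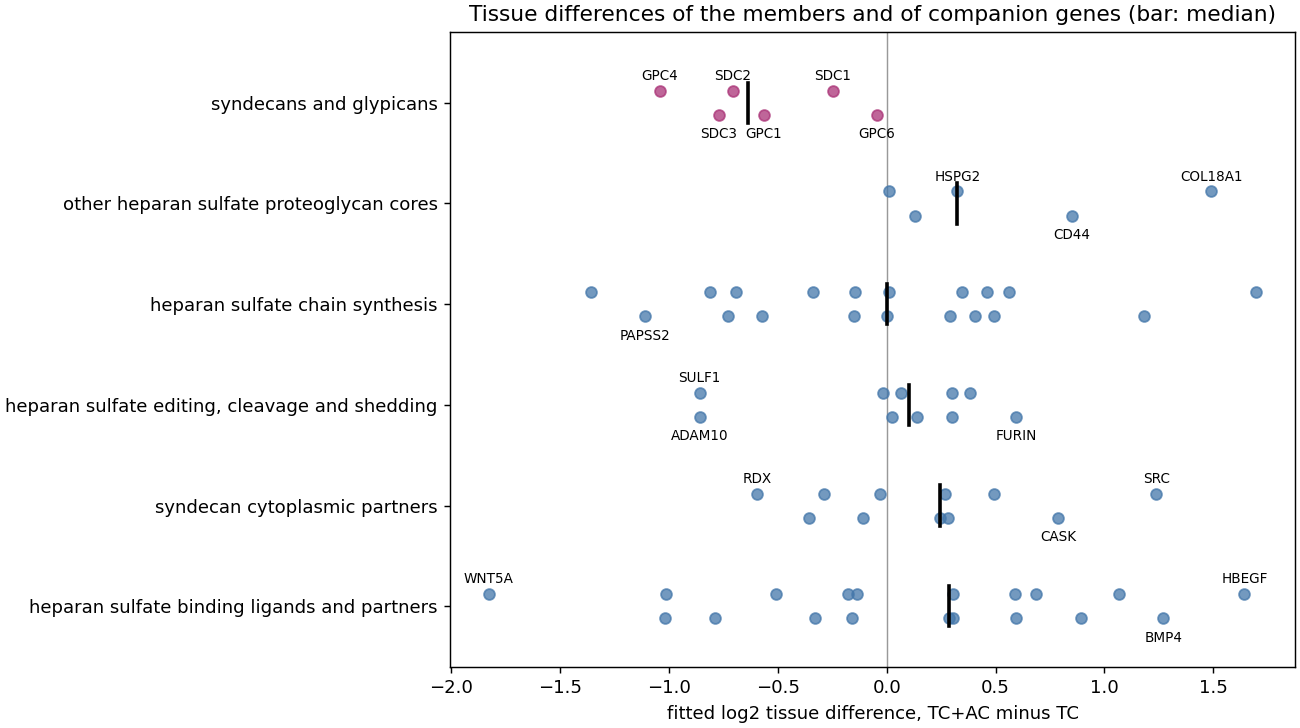
Fitted log2 tissue differences (horizontal axis) of the 6 tested syndecans and glypicans (purple) and of 5 lists of companion genes (blue), 1 point per gene with a black bar at the list's median. Points are shifted vertically for legibility only. The 6 tested genes of the named set all lie below 0, GPC4 lowest at -1.04, and each companion list has genes above 0. The share of all tested genes below 0 was not counted. Cartilage markers, not plotted, had a median of -0.74. The points of SDC1 and GPC6 are means of E12 and E14 differences of opposite sign. GPC2, a glypican outside that set, is not plotted.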

How the data were processed

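The authors deposited linear intensities of 38535 probe sets on each array, a unit read from the values themselves; their summary, background correction and scaling were not given in the sources used here. Symbols came from the platform annotation (27178 probe sets with 1 symbol, 177 with several, 11180 with none). The 96 control probe sets were left out, values were quantile normalized, since floored log2 medians differed by over 0.1 between arrays, floored at the 20th percentile (4.275) and taken to log2. The brightest probe set stood for each of 13009 genes, and the dimmest 40% by mean were not tested. The main test was limma 3.58.1 in R 4.3.3 (lmFit, eBayes, tissue and stage additive, prior degrees of freedom 27, prior variance 0.254). Benjamini-Hochberg adjustment ran over 7805 genes. The code was run on data simulated from its own fitted prior, and the check was that planted fold changes came back on average. This could not check error rates for single arrays. For arrays, their number limits the precision. P-values rest on 1 residual degree of freedom and mostly on a prior variance shared across genes. They do not measure the spread between embryos or repeat dissections. Where 1 side was at or below background, the fold uses background in its place.

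All members were named, of the companion lists those past the threshold or else the 3 with the largest fitted tissue difference, and for likeness the 3 nearest genes of the 2 widest-ranging members above background on all 4 arrays. Of 206 companion and marker entries, 186 matched by symbol and 5 by synonym. Among the latter, PTH1R, ALAS2 and KRT19 were read under the platform symbols PTH2R, ALAS1 and KRT24. They enter the hypertrophic, red cell and epithelial markers, and whether each pair is the same gene was not checked. Members and lists were chosen with earlier results of these data known. Alternatives covered scaling, floor, pseudocount, dim filter, probe set choice, prior trend, model terms and left-out arrays. Figures used Python 3.11.15 with matplotlib 3.10.9.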

Additional observations from a re-analysis of the deposited data

Results flagged for a closer look

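For 2 genes the tissue difference ran in opposite directions at the ages, each by more than 0.504, the SD of the prior shared across genes. SDC1 was higher in TC+AC at E12 (log2 0.83) and lower at E14 (-1.33), a change of -2.17. GPC6 was higher at E12 (1.85) and lower at E14, a change of -3.80 by measured values. Its TC+AC level at E14 lay below background, and with background in its place the E14 difference was -1.88 and the change -3.74. With 1 array per group these differences between the ages were not tested, and 39.3% of all genes tested had differences of opposite sign at E12 and E14.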

How the results depend on the processing

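No member passed for tissue or stage in any alternative on 4 arrays. On 3 arrays, where a fit also loses the other term, the count for tissue ranged from 0 to 1: without TC E12, GPC4 was called at -1.88 (limma adjusted p = 0.022, against 0.022 to 0.999 over its 14 alternatives), in a setting that called 883 genes against 115. All-gene calls for tissue numbered 0 with no dim filter, with every probe set on its own and without either TC+AC array, 12 with no stage term, 24 on hybridization controls, 29 from mean probe sets, 32 as deposited, 65 without TC E14, 217 with a prior trend or with the lowest 60% left out, and 264 with a pseudocount of 16. For stage they were 20, but 68 with median centring, 54 with the pseudocount, 35 with a prior trend, 32 with the lowest 60% left out, and 0 or 1 in the other settings except a floor at the 5th percentile, which gave 20. The stage call of PAPSS2 was lost, leaving 0 companion genes, as deposited and with no dim filter, and in every other setting with 0 stage calls. Members at least 2-fold apart in TC+AC between ages numbered 1, but 5 as deposited and on hybridization controls and 2 with median centring. All of these were lower at E14, as were 7.92%, 70.4%, 62% and 22.7% of all genes tested in the same order. In TC they numbered 5, but 4 as deposited, with median centring and on hybridization controls, and 1 with mean probe sets. Of all genes tested, 8.3% were higher and 14.1% lower in TC. The shares were 9.62% and 12.2% as deposited, 7% and 16.8% with median centring, and 22.4% and 4.48% on hybridization controls. Each group has 1 array and thus no replicate numbers to pair. The stage term of the main model pairs the tissues within each age.

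Fitted tissue differences of SDC2, SDC3 and GPC4 kept their sign in all 14 alternatives, but several of these could not change it. The dim filter, the prior trend and dropping the stage term on 4 arrays leave the fitted value as it is. As deposited and on hybridization controls, the median tissue difference of all tested genes at E14 was itself -1.09 and -1.66. With 1 array left out, the fitted tissue difference ranged from -0.95 to 0.46 for SDC1, from -1.14 to 0.015 for GPC1 and from -1.16 to 1.07 for GPC6. SDC1 and GPC6 were above 0 without TC E14 and without TC+AC E14, and GPC1 without TC E12. The stage change ranged from -0.34 to 0.99 for SDC1, -0.12 to 1.12 for SDC2, -0.20 to 0.89 for SDC3, -1.11 to 0.12 for GPC1, -0.42 to 1.67 for GPC4 and -0.65 to 1.29 for GPC6. Stage changes also reversed with scaling: as deposited SDC1 had -0.31, SDC2 -0.31, SDC3 -0.35, GPC4 -0.018 and GPC6 -0.062; on hybridization controls SDC1 had -0.0056, SDC2 -0.0061 and SDC3 -0.043; median centring gave SDC3 -0.034, and mean probe sets gave SDC1 -0.099. The change of GPC1's tissue difference between ages became -0.079 as deposited and -0.39 on hybridization controls, and that of SDC3 (0.64) became -0.81 and -1.12. In these settings the change was -3.58 and -3.89 for SDC1, -3.49 and -3.81 for GPC4, -4.91 and -5.22 for GPC6 and -2.09 and -2.40 for SDC2. The median change of all tested genes was -1.31 as deposited and -1.62 on hybridization controls, against 0.04 in the main setting. Minus that median, GPC1 had 1.23 to 1.29 and SDC3 0.51 to 0.60 over the 4 scalings, a closeness largely fixed in advance. With mean probe sets the change was -1.05 for SDC1 and -1.04 for GPC4, and with the pseudocount -2.71 for GPC6. The cause was not tested.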

Other observations

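GPC2, a glypican outside the named set and described here after its values were seen, had 3 probe sets that disagreed. The brightest read 51.9 in TC and 76.9 in TC+AC at E12, and 3.65, below background, and 78.6 at E14. On it the log2 tissue difference was 0.57 at E12 and at least 2.34 at E14. Another exceeded background on the TC E14 array only, at 44.3, with a log2 tissue difference of -0.85 or lower there. The third lay between 16.3 and 28.8 on the 4 arrays.

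UGDH, which makes the UDP-glucuronic acid used in all glycosaminoglycan chains except keratan sulfate, was also chosen after its values were seen. Its log2 tissue difference was 0.15 at E12 and -2.87 at E14 on the brightest probe set, and 0.31 and -0.65 on the other. In TC its log2 change from E12 to E14 was 2.14 and 1.01, with no replicate check. XYLT1, another gene of the chain synthesis list, had the opposite E14 direction on its brightest probe set. Its log2 tissue difference there was 0.76 at E12 and at least 2.28 at E14, where TC lay below background. The fitted tissue difference was 1.70 (limma adjusted p = 0.10). Another probe set had -0.13 at E12 and -0.27 or lower at E14, where TC+AC lay below background. The remaining one exceeded background on the TC E14 array only.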
